A study of Drosophila melanogaster with 3 samples.

Results

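Binding of a GFP-tagged form of the Hox protein abd-A was examined at 6 genes of Drosophila melanogaster that build denticles and hairs: ovo, also called shavenbaby, and the effector genes sn, f, m, sha and mwh. The genes were chosen by name, with earlier results of these data known. Each was taken as its annotated body with 10 kb on each side, and for ovo the 100 kb upstream of the gene was added. A peak was counted where its summit, the position of highest signal, lay in these regions. They covered 363 kb, or 0.271% of the main chromosome arms. They held 6 of the 8143 peaks of the list kept after a threshold on irreproducible discovery (IDR), a measure of how far the ranking of peaks repeats between replicates. They also held 41 of the 30000 peaks called on the pooled replicates, and 37, 40 and 46 of the 30000 peaks called in replicates 1, 2 and 3. The regions lay on dm6 (genome release 6), and all 6 genes are read from the plus strand. They were ovo (FBgn0003028, X, 5048273 to 5070929), sn (FBgn0003447, X, 7964024 to 7986601), f (FBgn0262111, X, 17232942 to 17280964), m (FBgn0002577, X, 11754273 to 11769508), sha (FBgn0003382, 2R, 11324314 to 11336463) and mwh (FBgn0264272, 3L, 1200786 to 1232700).

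The study precipitated chromatin of whole embryos, 4 to 24 hours old and of mixed sex, with an antibody to GFP and sequenced the DNA. All 3 samples were biological replicates of 1 group, a transgenic line that stably expresses abd-A with GFP at its C-terminus. No sample of another genotype, tissue or treatment was analysed here, so nothing in these data compares the line with untagged embryos, and the signal is that of the tagged protein over all tissues and a wide span of stages. A site bound in few cells and a site bound weakly in many cells cannot be told apart in whole embryos, and a peak says that precipitated DNA was found there, not that the gene responds.

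abd-A specifies the identity of abdominal segments, where the larval underside carries belts of denticles, the hooked outgrowths of epidermal cells. The ovo locus codes for the zinc finger transcription factor Shavenbaby of the epidermis and for related germline proteins. In the epidermis Shavenbaby switches on genes that raise the outgrowth: sn codes for the actin-bundling protein Fascin, f for an actin-bundling protein of bristles and hairs, m for a zona pellucida (ZP) domain protein of the apical matrix, sha for a protein needed for hair formation and mwh for a planar polarity protein that restricts where actin outgrowths form. Enhancers that drive ovo in the embryonic epidermis are known from the DNA upstream of the gene, and Hox proteins with the cofactors Extradenticle (Exd) and Homothorax (Hth) are known to act on them.

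The DNA under the 6 IDR summits is shown first, because these are the peaks that passed the IDR threshold at the denticle genes. Each line gives the plus strand from 50 bases before to 50 after the summit, read from the RefSeq copy of the dm6 genome. Capitals mark the matches to 2 of the 7 short words searched, TGATNNAT for a composite of Exd with a Hox protein and GAGAG for the GAGA factor, on either strand. The match in the ovo peak was read on the minus strand as TGATAAAT, and that in the second mwh peak on the plus strand as TGATTTAT.
ovo, 8.01 kb upstream, chrX:5040214-5040314: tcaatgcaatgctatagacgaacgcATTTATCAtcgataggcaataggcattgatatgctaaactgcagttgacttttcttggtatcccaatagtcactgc
mwh, intron near LysE, chr3L:1212271-1212371: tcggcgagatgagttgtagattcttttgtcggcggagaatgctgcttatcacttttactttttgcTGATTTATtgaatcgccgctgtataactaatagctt
mwh, intron near CG9119, chr3L:1205210-1205310: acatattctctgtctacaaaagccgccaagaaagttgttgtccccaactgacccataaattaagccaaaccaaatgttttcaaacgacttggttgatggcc
f, 3291 bp upstream, chrX:17229601-17229701: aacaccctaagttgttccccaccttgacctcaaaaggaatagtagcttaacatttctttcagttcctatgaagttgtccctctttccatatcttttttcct
sn, intron, chrX:7972676-7972776: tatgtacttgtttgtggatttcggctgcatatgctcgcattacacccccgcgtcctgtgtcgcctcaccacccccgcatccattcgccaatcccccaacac
sn window, at Tbh, chrX:7995472-7995572: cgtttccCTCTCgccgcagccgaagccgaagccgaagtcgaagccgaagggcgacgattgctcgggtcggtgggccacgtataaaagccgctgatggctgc

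A pair of pooled peaks in sn introns outside the IDR list is shown because they hold the word ACNGTTA, which the Ovo zinc fingers are known to bind. Capitals mark that word and GAGAG on either strand. In the first of them, 2 overlapping matches to the Ovo word span the summit, and 4 matches to GAGAG follow, the first 3 of them overlapping.
sn, 7.16 kb past the gene start, chrX:7971135-7971235: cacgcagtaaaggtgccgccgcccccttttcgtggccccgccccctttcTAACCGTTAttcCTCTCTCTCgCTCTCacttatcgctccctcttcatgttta
sn, 14.6 kb past the gene start, chrX:7978537-7978637: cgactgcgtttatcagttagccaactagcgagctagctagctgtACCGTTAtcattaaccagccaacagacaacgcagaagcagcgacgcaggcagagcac

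The tagged gene was looked at first as a check of the precipitation, a limited one because no untagged line was analysed here. Its body held 15 IDR and 25 pooled summits, and 28, 24 and 26 summits of replicates 1, 2 and 3, with its strongest peak ranked 4, 5 and 3 in those lists. Peak strength is given as the signal value of the authors' peak caller over the median of the same list, and the weakest peak that each list kept was 0.440 times the median in the pooled list and 0.441, 0.467 and 0.462 times in replicates 1, 2 and 3. All 8143 IDR peaks were also in the pooled list. Because the IDR list derives from these replicates, finding its peaks in them is no separate evidence. Read depth was unknown.

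Peak density differed between the denticle genes. The windows of ovo, sn and mwh held 211, 258 and 250 pooled summits per Mb, against means of 220 per Mb for X, where ovo and sn lie, and 228 per Mb for 3L, where mwh lies. The f window held 88.2 per Mb and the DNA upstream of ovo 80 per Mb, both on X, and m and sha held 0. Over all regions together, these empty or poor stretches included, there were 16.5 IDR and 113 pooled summits per Mb, against 60.8 and 224 per Mb over the main arms. IDR summits alone stood at 23.4, 47.0 and 38.5 per Mb in the windows of ovo, sn and mwh. The means were 48.5 per Mb for X and 63.1 per Mb for 3L. These densities rest on 1, 2 and 2 summits, where 2.07, 2.06 and 3.28 would lie at the mean densities of their arms. The differences are thus of few peaks. Counted over the gene body with 10 kb on each side, 4 of the 6 genes, ovo, sn, f and mwh, had an IDR summit, and m and sha had none. Among all coding genes 52.6% had one in the same kind of window. The share was 49.9% for coding genes of X and 76.4% for coding genes of 10 to 60 kb, the size class of all 6 members. The same 4 genes had a pooled summit, against 67.6% of coding genes and 86.4% of those of 10 to 60 kb, and the same 4 had a summit in all 3 replicate lists, against 65.4% of coding genes. For the replicate lists the share among genes of 10 to 60 kb is not given. These counts lay near the shares of all coding genes, and the IDR and pooled counts lay under those of genes of 10 to 60 kb. With 6 genes, having a peak did not set the members apart as a group.

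**Figure D1:**
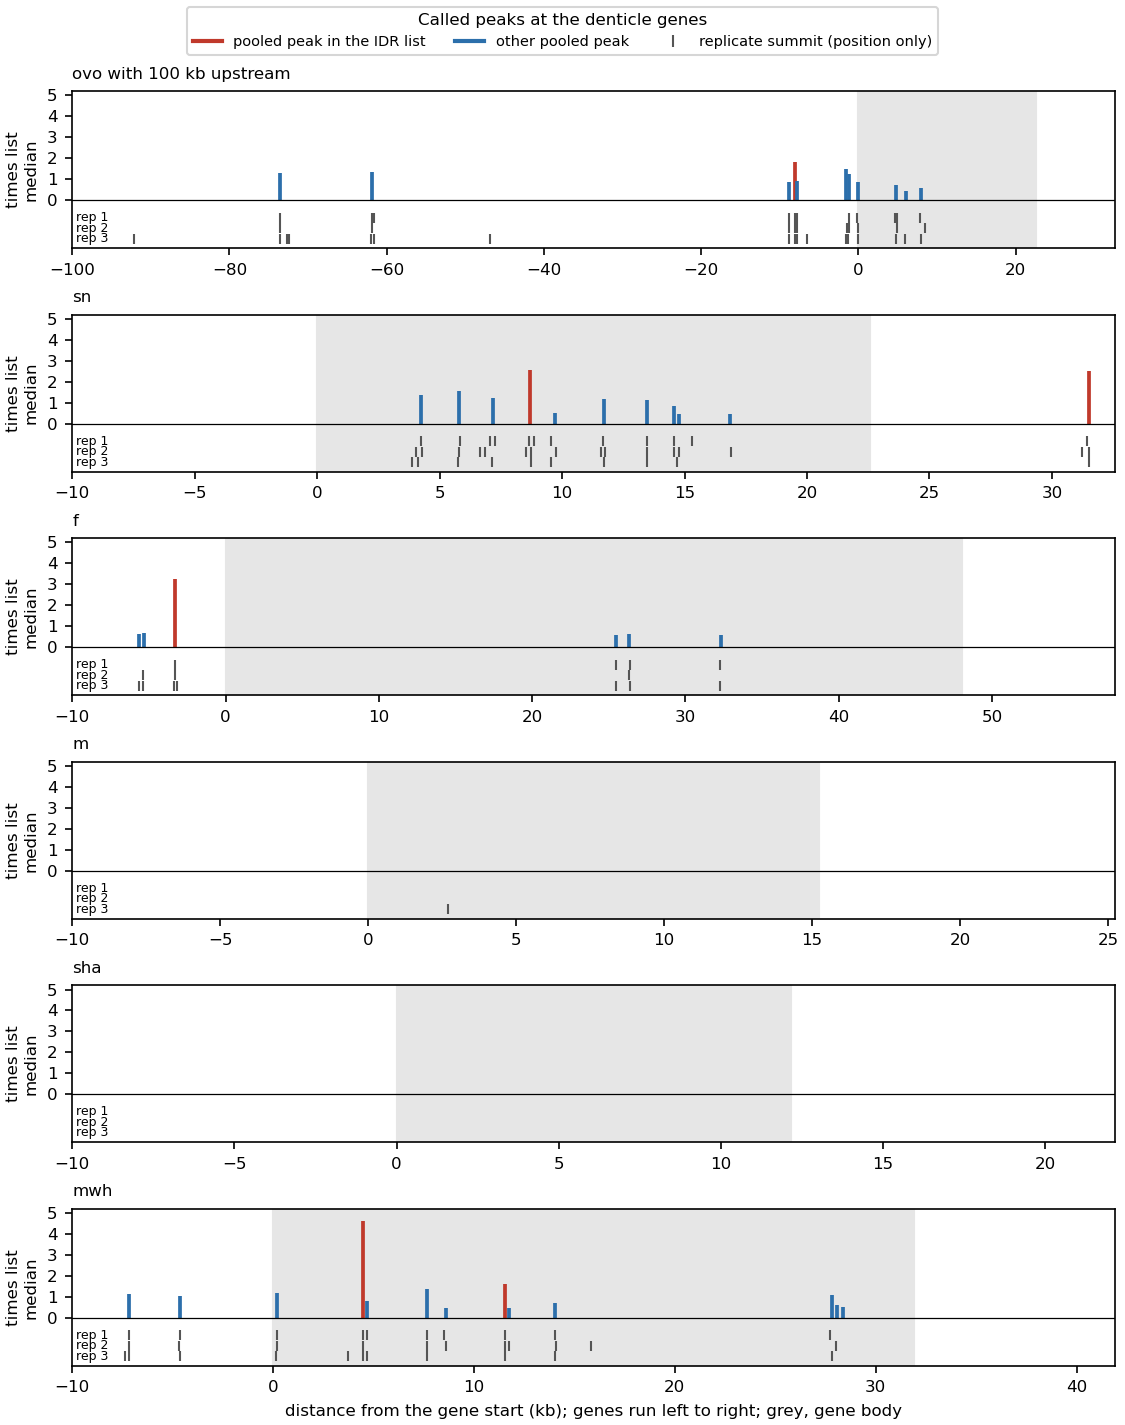
Called peaks at the 6 denticle genes, by distance from the gene start in kb, with strength in times the pooled list median on the upright axis (red, peaks in the IDR list; blue, other pooled peaks) and the summits of replicates 1 to 3 as ticks below. Peaks of ovo lie in the last 10 kb before the gene and its first 7.93 kb with a pair far upstream, those of sn and mwh lie mostly in the gene body, and m and sha are empty but for 1 tick of replicate 3 in m.

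For ovo, the upstream regulator, the window held 1 IDR summit and 9 pooled summits, with 8, 8 and 10 in replicates 1, 2 and 3 (8.67 ± 1.15, SD, n = 3). The IDR peak (X, 5040026 to 5040501) lay 8009 bp upstream of the gene start, in an intron of the noncoding antisense gene lncRNA:CR44833. It was 1.54, 1.84 and 1.78 times the median in replicates 1, 2 and 3 (1.72 ± 0.162, SD, n = 3) and ranked 6563 in the pooled list. All 3 replicates thus placed it above the middle of their lists, in ranks 8545, 6133 and 6654. Its match to the Exd-Hox word, printed above, lay 18 to 25 bp before the summit. Another pooled summit, 7.81 kb upstream at 0.902 times the median, overlapped these peaks and had a weaker replicate peak of its own, at 0.857, 0.787 and 0.802 times in replicates 1, 2 and 3. A further one lay 8.84 kb upstream. All 11 pooled summits of ovo and its upstream DNA fell within the span of lncRNA:CR44833, which runs on the minus strand from 5063868 to 4956646.

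Closer to the gene, a pair of pooled summits stood 1.51 and 1.24 kb upstream at 1.50 and 1.25 times the pooled median. Replicates 2 and 3 had a peak for each, at 1.85 and 1.47 times the median for the summit farther from the gene and at 1.25 and 1.13 times for the nearer one. Replicate 1 had a single peak there, by the nearer summit, at 1.11 times. Near the outermost annotated start of ovo the pooled summit was 41 bp away and weak, at 0.720, 0.945 and 0.733 times the median in replicates 1, 2 and 3 (0.799 ± 0.126). The promoter peak was below the median in every replicate, and each replicate peak at the pair upstream was above it. Inside the gene 3 pooled summits lay within 7.93 kb of the start, at 0.718, 0.441 and 0.567 times the pooled median, of which the first was found in all 3 replicates, the second in replicate 3 only and the last in replicates 1 and 3. The other annotated starts of ovo, at 5063844 and 5064233, had no pooled summit within 7644 and 8033 bp. The next IDR summit past the gene, at 5083751 in CG32767, was 19518 bp from the inner start at 5064233 and outside the window.

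The 100 kb upstream of ovo held 1 IDR summit, the one described, and 8 pooled summits, where 4.85 and 22.0 would lie at the mean densities of X. Replicates 1, 2 and 3 had 8, 8 and 14 there (10 ± 3.46, SD, n = 3), and replicate 3 was the high one. Of the 8 pooled summits 6 lay in the last 10 kb. Beyond 10 kb the pooled list had 2, the replicate lists 3, 2 and 7. The pair stood 61.9 and 73.5 kb upstream, in introns of lncRNA:CR44833. The summit at 61.9 kb, at 4986406, lay 735 bp past the start of another noncoding gene, lncRNA:CR45792, and just beyond its end at 4986397. At 61.9 kb the values were 1.51, 1.11 and 1.09 times the median in replicates 1, 2 and 3 (1.23 ± 0.237), and at 73.5 kb they were 1.45, 0.946 and 1.06 times (1.15 ± 0.263). Replicate 1 gave the highest value of the 3 at both sites.

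Between 61.9 and 8.84 kb upstream the pooled list had no summit over 53.0 kb. Replicates 1 and 2 showed gaps of 52.8 and 53.0 kb, and replicate 3 had a gap of 37.9 kb, ended by 1 weak peak at 46.8 kb upstream of 0.532 times its median. Neighbouring pooled summits of X were 1.39 kb apart in the median, and 48 of 5185 intervals were at least as long as this one. Such intervals together made up 20.0% of the length of X. A missing peak in this stretch is a statement about lists that end at 30000 peaks in whole embryos, not about the absence of binding.

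The Fascin gene sn came after mwh in its number of pooled peaks, with 2 IDR and 11 pooled summits in its window and 12, 16 and 10 in replicates 1, 2 and 3 (12.7 ± 3.06, SD, n = 3). Of the pooled summits 10 lay in the sn body, from 4.23 to 16.9 kb past its start. The IDR peak of the body (X, 7972551 to 7972915) was intronic, 3023 bp past the inner start of sn at 7969703. It was 2.64, 2.73 and 2.09 times the median in replicates 1, 2 and 3 (2.49 ± 0.348), above the middle of the list in each. In replicate 2 a second overlapping peak, nearer to this summit, was at 2.29 times. A pooled summit 95 bp past that inner start was 0.988, 1.77 and 1.68 times the median (1.48 ± 0.426), lower in replicate 1 than in the other replicates. The outermost start of sn had no pooled summit within 4231 bp.

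Neighbours shared the sn peaks. The pooled summit at 7968255, whose strongest overlapping replicate peaks were 1.51, 1.49 and 1.38 times the median (1.46 ± 0.0667), lay within sn but 19 bp from the start of sws, a gene of nervous system maintenance. The other IDR peak of the window (X, 7995350 to 7995689) lay past the end of sn, 175 bp upstream of Tbh, which codes for the tyramine beta-hydroxylase of octopamine synthesis. It was 2.07, 2.37 and 2.56 times the median (2.33 ± 0.251). The pair of intronic summits with the Ovo word was weaker, at 1.72, 1.11 and 1.64 times (1.49 ± 0.332) for the summit 7.16 kb past the start and 1.00, 0.799 and 0.649 times (0.817 ± 0.178) for that 14.6 kb past it.

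The bristle actin gene f was the longest member, at 48.0 kb, and was poor in peaks, with 1 IDR and 6 pooled summits in its window and 4, 3 and 7 in replicates 1, 2 and 3 (4.67 ± 2.08, SD, n = 3). At the mean density of X, 15.0 pooled summits would lie there. The IDR peak (X, 17229586 to 17229817) was strong, at 2.64, 3.57 and 2.98 times the median in replicates 1, 2 and 3 (3.06 ± 0.471). It was intergenic, 3291 bp upstream of the outermost f start and 1393 bp from the start of CG10597, beyond the 3' end of that gene. The other 5 pooled summits were all below the median, from 0.569 to 0.666 times. A pooled summit 120 bp upstream of the inner start at 17259374 was the one of these found in all 3 replicates, at 0.491, 0.507 and 0.475 times (0.491 ± 0.0160), close to the weakest peaks the lists kept. Another, 167 bp upstream of the start at 17265433, was found in replicates 1 and 3. No IDR summit lay in the f body.

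At mwh, the polarity effector, peaks were more numerous, with 2 IDR and 13 pooled summits in the window and 10, 11 and 11 in replicates 1, 2 and 3 (10.7 ± 0.577, SD, n = 3). The gene holds other genes in its introns, among them a cluster of lysozyme genes, and 11 of the 13 pooled summits lay inside mwh. Its first IDR peak (3L, 1205080 to 1205407) was the strongest at any member, at 5.12, 4.08 and 3.73 times the median in replicates 1, 2 and 3 (4.31 ± 0.726), and ranked 898 in the pooled list. It lay 4474 bp past the mwh start and 465 bp upstream of the nested gene CG9119. The next IDR peak (3L, 1212248 to 1212370), 123 bp wide, was 1.58, 1.95 and 1.06 times the median (1.53 ± 0.449), highest in replicate 2 and close to the median in replicate 3. It lay 506 bp upstream of the nested lysozyme gene LysE and holds the other Exd-Hox match printed above.

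Both annotated mwh starts had a pooled summit close by. That 208 bp past the outer start was 1.20, 1.13 and 1.24 times the median (1.19 ± 0.0553), and that 16 bp from the inner start at 1208420 was 1.44, 1.18 and 1.26 times (1.29 ± 0.133). All of these replicate values were above the medians. By the nearest coding start, 2 of the 6 IDR peaks belonged to a member, those upstream of ovo and inside sn, and the other 4 were nearest to Tbh, CG10597, CG9119 and LysE.

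**Figure D2:**
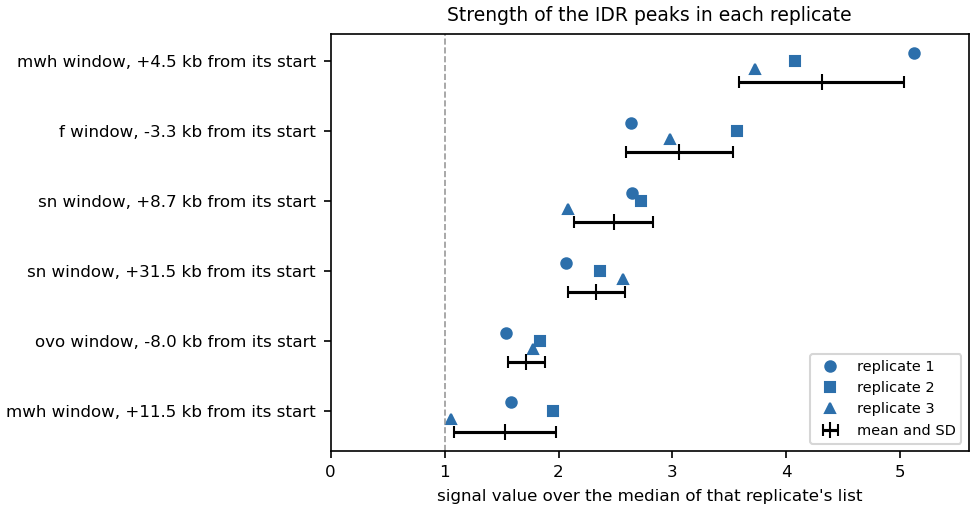
Signal value of the 6 IDR peaks over the median of each replicate's own list (horizontal axis, linear; dashed line, the median), with 1 marker per replicate and the mean with SD below. The peak 4.5 kb past the mwh start and that upstream of f are the strongest, and the lowest value, 1.06 in replicate 3, belongs to the mwh peak 11.5 kb past its start.

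The members without peaks were m and sha. At m, the pooled list and replicates 1 and 2 had no summit in the gene or within 10 kb, where 7.76 would lie at the mean pooled density of X. Replicate 3 had 1 peak there (X, 11756731 to 11757186), 2.69 kb into the gene, at 0.469 times the median and rank 29681 of 30000, which is next to the weakest kept. The nearest pooled summits were 37.7 kb before m, closest to the start of prtp, and 23.0 kb past its end, at CkIIbeta. They left a gap of 76.0 kb in the pooled list that also spans dy, which codes for another ZP-domain protein, Dusky. Gaps at least as long numbered 106 among 29994 between neighbouring pooled summits of the arms.

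At sha none of the 5 lists had a summit in the gene or within 10 kb, where 6.56 pooled summits would lie at the mean density of 2R. Pooled summits flanked it 34.8 kb before, nearest to the start of Fbl6, and 28.4 kb after, nearest to that of CG13204. The peak after sha was strong, at 6.04 times the pooled median, and the gap between them was 75.3 kb. Replicates 1, 2 and 3 had gaps of 75.4, 75.3 and 75.3 kb at the same place. The sha window also held nompA, which codes for a matrix protein of sense organs, the odorant receptor gene Or47b and 8 trypsin genes, all without a peak. Having no pooled summit in such a window was not rare for genes of this size: it was so for 237 of 1747 coding genes of 10 to 60 kb (13.6%). Being as far from the nearest pooled summit as m was found for 7.56% of them, and as far as sha for 6.30%.

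All 6 IDR peaks overlapped a peak in each of the 3 replicate lists by at least 1 bp, against 98.3% of the whole IDR list. Of the 41 pooled peaks 32 were found in all 3 replicates (78.0%), 6 in 2 and 3 in 1, against 82.1% found in all 3 for the whole pooled list. The regions also held 11 replicate peaks with no pooled peak over them, of 0.452 to 4.70 times the median, and 1 of these was shared with another replicate. The 6 IDR summits had a median GC content of 40.6% within 50 bp (38.6 to 64.4%), against 45.5% for the IDR list, and 2 were within 500 bp of an annotated start, 3 intronic and 1 intergenic. Pooled summits of the members lay a median of 1100 bp from the nearest start of any gene, against 3118 bp for the pooled list. The regions were mostly drawn around genes and the whole list was not. Whether this difference is a trait of the member peaks was not tested. The median strength of these pooled summits was 0.902 times that list's median. These are descriptions of few peaks.

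**Figure D3:**
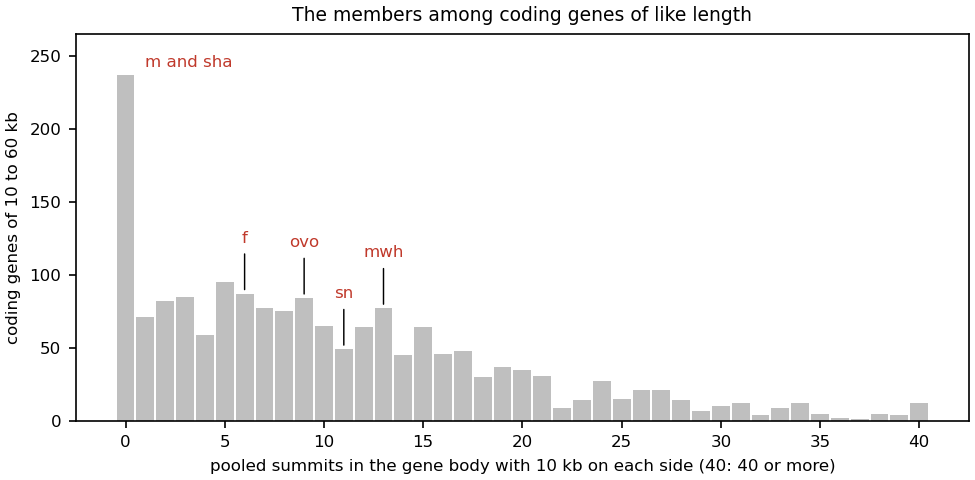
Number of coding genes of 10 to 60 kb (upright axis) by the number of pooled summits in the body with 10 kb on each side (horizontal axis), with the 6 members marked. The members ovo, sn, f and mwh, with 9, 11, 6 and 13, stand in the middle of the distribution, and m and sha stand among the 237 genes with 0.

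Against coding genes of 10 to 60 kb, whose median was 9 pooled summits, the counts were ordinary. At least as many as mwh (13) were found at 35.3% of these genes, as sn (11) at 41.8%, as ovo (9) at 50.3% and as f (6) at 64.0%. For IDR summits the median was 2, the number at sn and mwh, while ovo and f had 1.

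The words within 50 bp of the summits were counted over all peaks as well. A match to TGATNNAT was found at 2 of the 6 IDR summits, in the ovo and the second mwh peak, and at 4.35% of IDR summits. Over the pooled list it was found at 3 of 41 member summits (7.32%) and at 4.79% of all pooled summits. The GAGA word was found at 1 of 6, the peak at Tbh, and at 19.0% of IDR summits. None of the 6 held the Hox core TAATTA, found at 5.15% of IDR summits, or the Hth word TGACAG, found at 4.06%. None held the Ovo word (3.35% of IDR summits), the word ACCGGTT of Grainyhead, an activator of cuticle genes (0.528%), or the word CAGGTAG of Zelda, an activator of the early genome (0.332%).

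Among the 41 pooled member summits the Ovo word was found at 6 (14.6%), against 2.81% of all pooled summits. They were 2 in sn, 3 in mwh and 1 in ovo. That of ovo, 7.93 kb past the gene start, also held the Grainyhead word. It was 0.567 times the pooled median and was found in replicates 1 and 3 only. Those of mwh lay 208 bp, 8.62 kb and 11.7 kb past the mwh start, at 1.17, 0.441 and 0.451 times. The summits at 8.62 and 11.7 kb were next to the weakest the pooled list kept, and that at 8.62 kb was not found in replicate 3. Those of sn were at 1.21 and 0.858 times. The GAGA word was found at 12 (29.3%), against 15.7%. With so few summits these shares are counts and were not tested, and a match or its absence so close to a summit says nothing of the factor itself.

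Other genes of denticle and cuticle formation were counted in the same windows. Of 10 genes that regulate ovo or its protein, 8 had an IDR summit, led by hth (25), the Hox cofactor gene, by tal-1A (6), which codes for the small peptides that convert Shavenbaby into an activator, and by SoxN and spi (4 each). Ubr3, the ubiquitin ligase of that conversion, had 1. exd had no pooled summit, and D, the Sox gene Dichaete, had 7 pooled but no IDR summit. The hth gene is 132 kb long, against 1.54 kb for tal-1A. With 2 kb on each side hth had 24 IDR summits, tal-1A 2, SoxN 3 and spi 4.

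Of 13 actin genes of hairs and bristles 9 had an IDR summit, among them sn and f, led by chic (5), the profilin gene, DAAM (4), a formin gene, and Rok and sqh (3 each), which act on myosin. Of 13 planar polarity genes 9 had one, among them mwh, led by fz (18), the polarity receptor gene, stan (7) and pk (4). Of 9 cuticle and pigment genes 6 had one, led by grh (14) and the neighbouring chitin deacetylase genes serp (7) and verm (6), whose windows overlap. ZP-domain genes of the apical matrix had fewest, 3 of 11 (27.3%), namely nyo (2), qsm (2) and cyr (1), and m, dy, dyl, mey, neo, tyn, zye and pio had none. The shares for the other lists ran from 66.7 to 80.0%, against 52.6% of all coding genes and 76.4% of those of 10 to 60 kb. Without the members, 7 of 11 actin genes, 8 of 12 polarity genes and 3 of 10 ZP-domain genes had an IDR summit. Many of the counts came from the outer flanks. With 2 kb on each side DAAM had 0, Rok, sqh and verm 1 each, serp 3, stan 6 and grh 9, while chic kept 5, fz 18 and pk 4. Median gene length was 14.4 kb in the ZP-domain list and 13.4, 4.55, 7.12 and 5.23 kb in the actin, polarity, regulator and cuticle lists, and the part of gene length in these shares was not tested.

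**Figure D4:**
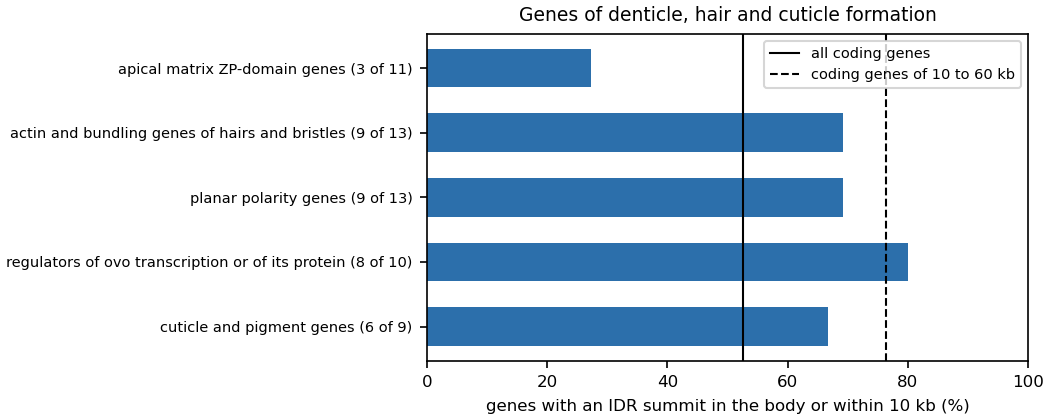
Share of the genes of each list with an IDR summit in the body or within 10 kb (bars, in %), against all coding genes (solid line) and coding genes of 10 to 60 kb (dashed line). The ZP-domain list, at 27.3%, is below both lines, and the regulators of ovo, at 80.0%, are above both.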

How the data were processed

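The authors deposited narrowPeak lists on dm6, 5 in all: 1 per replicate, 1 called on the pooled replicates and 1 thresholded by IDR, as described in the deposited text records. The replicates shared 1 control file, per those records. The aligner and caller were not given in the sources used here, nor was the IDR threshold. The signal value in the deposited lists is a score from the authors' caller and was used only within its own list, over the median of that list. In the deposited lists the −log10 q-value reached a ceiling in 93.8% of IDR peaks and was not used. Fragments were of 200 to 800 bp, per the labels. The 3 replicate numbers come from the labels, and the age of the embryos from the source name. Apart from the IDR list, every list ended at 30000 peaks, and depth was unknown.

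Genes came from Ensembl release 115 and sequence from RefSeq, both on genome release 6, whose coordinates are those of dm6. Each summit counted as a peak, although 517 IDR summits share an interval with another. A pooled peak was found in a replicate where they overlapped by at least 1 bp, and the strongest overlapping peak gave its value, so neighbouring pooled summits can share it. A summit within 500 bp of a transcript start was called promoter. Words were sought on both strands, overlaps included. Means are over replicates with SD. With 1 group there was no comparison of conditions and no p-value. Named are the members with every IDR peak and the genes over or nearest to them, the 3 genes of each list with most IDR summits (ties included), and the features upstream of ovo. Genes of the lists without a summit, D, Ubr3, exd and the neighbours of m and sha were named after their values were seen. The members and lists were chosen with earlier results of these data known. Counting and word search were tested on simulated data. Analysis used Python 3.11.15, numpy 2.4.6, pandas 2.3.3 and matplotlib 3.10.9. Alternatives were other flanks, overlap rules, peak subsets, wider word windows and leaving out each replicate.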

Additional observations from a re-analysis of the deposited data

How the results depend on the processing

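With flanks of 2 kb or with the gene body alone, the 6 IDR summits of the gene windows became 3 and the 4 genes with one became 2. This was because the peaks of ovo and f and that at Tbh lie farther out. The share of all coding genes was then 26.5% with 2 kb in place of 52.6%. With 2 kb the ZP-domain list had 18.2%, the actin and polarity lists 46.2% each, the cuticle list 33.3% and the regulators of ovo 80.0%. Counting every pooled peak gave 39 summits in the gene windows and 8 in the 100 kb upstream of ovo, and the stronger 50% of IDR peaks left 0 upstream of ovo. Counted by the nearest coding start, an alternative chosen after seeing the data, 2 of the 6 summits belonged to a member. Support of the 6 IDR peaks in all 3 replicates was 100% with 1 bp of overlap and 66.7% with 50% overlap or among the 8143 strongest peaks. No share of the whole IDR list is given for these stricter rules. Whether the lower share is particular to these peaks was not tested. Leaving out a replicate cannot lower the 100%, because a peak found in all 3 lists is found in each of them, so it is no check of that support. With each replicate left out in turn, mean strengths were 1.66 to 1.81 for ovo, 2.36 to 2.68 for sn, 2.81 to 3.27 for f and 3.90 to 4.60 for mwh. Over the median of the 8143 strongest peaks the ovo peak was at 0.741 times and the sn, f and mwh peaks at 1.07, 1.32 and 1.85 times. No paired analysis was possible because the series has 1 group. Depth was unknown, and lists that end at 30000 peaks limit what a missing peak can show.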

Other observations

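The strongest replicate peak in the whole ovo region was in 1 list only. Replicate 3 had a peak 114 bp wide (X, 4956108 to 4956221), 92.1 kb upstream of ovo, at 4.70 times its median and rank 754 of 30000. The pooled list and replicates 1 and 2 had no peak over it. Among the 1000 strongest peaks of replicate 3, 7 had no pooled peak over them, and in replicates 1 and 2 there were 16 and 8. Replicate 3 also had peaks at 1.11 and 0.631 times its median near the pooled summit 73.5 kb upstream that no other list held.

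CG32767, which follows ovo on the opposite strand and lies mostly within the ovo window, held 2 IDR summits and 4 pooled summits in its body, all of them past the edge of the window. After f, the overlapping genes CG5445 and Fim, which begin or end within the f window and run past it, held 9 and 8 pooled summits in their bodies, and 1 IDR summit each.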
